A study of Mus musculus with 16 samples.

Results

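Ubiquitin-conjugating E2 enzymes are described here in the tibialis anterior, a muscle at the front of the lower leg, of mice that had or lacked the ubiquitin ligase UBR4 in their myofibers. The genes were chosen by symbol, as all entries of the expression table that begin with Ube2 followed by a letter, without entries ending in -ps. This gave 40 of the 47643 entries, and 32 of the 40 had a mean of at least 1 TPM over all samples and were tested. An E2 enzyme receives activated ubiquitin from an E1 enzyme as a thioester on its catalytic cysteine and, together with an E3 ligase, passes it on to a substrate or a growing chain. Each E2 works with its own set of E3 ligases, and much of the kind of chain that is built is set by the E2. UBE2A and UBE2B, the mammalian counterparts of yeast RAD6, are the E2 enzymes known to work with the UBR ligases that read N-degrons, and UBE2B (E2-14k) is long known as an abundant E2 of skeletal muscle.

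RNA was sequenced from 16 muscles of male C57BL6/J mice, 4 in each of 4 groups, namely WT and UBR4 mKO mice aged 6 months and WT and UBR4 mKO mice aged 24 months. Mice of both genotypes were homozygous for floxed UBR4 alleles and received tamoxifen. The UBR4 mKO mice also carried an inducible Cre under the ACTA1 promoter, which is active in skeletal muscle, so that blood, vessel and connective tissue cells of the muscle keep Ubr4, whereas the WT siblings carried no Cre. Values are TPM, reads per transcript length scaled to 1000000 in every sample, which allows levels to be compared between genes but keeps no record of sequencing depth. In whole muscle, fewer cells of a type and less RNA per cell cannot be told apart. Tamoxifen was given at the same age, before 6 months, to mice of all groups. Age and time since deletion thus cannot be told apart in UBR4 mKO muscles or in the test of whether the knockout effect differs between the ages. Genes were tested with limma on log2(TPM + 0.1), a scale that understates the change of low genes, and a gene is said to have risen or fallen where its Benjamini-Hochberg adjusted p over the 10628 genes tested was under 0.05.

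Ubr4 ranged from 9.09 to 15.7 TPM in 6-month-old WT and from 4.91 to 6.54 TPM in 6-month-old UBR4 mKO muscles, without overlap. At 24 months it ranged from 17.0 to 21.1 TPM in WT and from 4.28 to 14.6 TPM in UBR4 mKO muscles, again without overlap. The 6 myofiber markers summed to 60078 to 68048 TPM in 6-month-old WT muscles and to 71565 to 79360 TPM in the other 12, without overlap, and 3 of the 6 rose with knockout at 6 months on TPM, whereas after median-of-ratios scaling 1 rose and 2 fell. Mitochondrially encoded genes took up 52.6 to 59.7% of TPM in 6-month-old WT muscles and 46.1 to 51.7% in the other 12, and the median of all tested genes was 0.33 higher (log2) in UBR4 mKO than in WT muscles at 6 months. After division by median-of-ratios factors, which set the typical gene equal across samples, that median was -0.018, so both scales are given for the changes. One library, UBR4 mKO sample 3 of the 24-month-old group, differed most from its group, with a median absolute log2 distance of 0.309 from the other samples of its group against 0.0737 to 0.175 for the other 15 samples.

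The label fits most but not all entries. Ube2v1 and Ube2v2 encode E2 variants without a catalytic cysteine, Ube2cbp (also Ube3d) encodes an E3 ligase that binds an E2, Ube2uos is annotated as an antisense RNA of Ube2u, and Ube2d4 and Ube2nl are annotated as processed pseudogenes. Cdc34, which encodes the E2 enzyme UBE2R1, is left out by the symbol rule, as is Ube2d-ps, an entry with a mean of 18.4 TPM. The 8 genes not tested were Ube2ql1, with a mean of 0.649 TPM, Ube2u, Ube2dnl1 and Ube2d2b, which were above 0 in some samples only, and Ube2nl, Ube2uos, Ube2d4 and Ube2dnl2, which were listed at 0 in every sample.

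The coding sequences of the 2 close pairs on which the results turn are shown around the catalytic cysteine, since reads of paralogs can be confused where they are identical. In each pair the 60 bases differ at 12 positions, marked in capitals, of which 11 are the third base of a codon. Ube2a lies on chrX:36873900-36884222 on the plus strand and Ube2b on chr11:51985497-52000762 on the minus strand of GRCm38, and their windows cover coding bases 223 to 282, with the catalytic cysteine at codon 88 of 152.
Ube2a: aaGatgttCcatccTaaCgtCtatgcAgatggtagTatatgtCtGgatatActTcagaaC
Ube2b: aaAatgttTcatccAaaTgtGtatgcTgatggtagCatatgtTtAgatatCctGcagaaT
Ube2r2 lies on chr4:41135743-41193380 and Cdc34 on chr10:79682195-79688398, both on the plus strand, and their windows cover coding bases 238 to 297, with the cysteine at codon 93 of 238 in Ube2r2 and of 235 in Cdc34.
Ube2r2: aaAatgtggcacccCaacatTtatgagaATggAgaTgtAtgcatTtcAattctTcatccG
Cdc34: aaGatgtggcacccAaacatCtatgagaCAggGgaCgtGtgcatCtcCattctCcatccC
The whole coding sequences were 77.6% identical between Ube2a and Ube2b, with no identical run over 17 bases, and 75.6% between Ube2r2 and Cdc34, with none over 26. No 100-base window of the annotated transcripts of Ube2a, Ube2b or Ube2r2 occurred in another gene, whereas 34 of the 2144 windows of Cdc34 (1.59%) also occur in Cdc34b on the same strand.

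The E2 genes together made up 0.112% of TPM (0.0880 to 0.130% over the samples). Ube2b had the highest level of the 40 genes, with a mean of 365 TPM and 30.6 to 34.7% of all E2 TPM in each sample. It was followed by Ube2d3 at 71.1 TPM, whose product is a broad-range E2 that starts chains, and by Ube2v1 at 69.0 TPM. Below these came Ube2m (60.4 TPM), Ube2r2 (59.2), Ube2g2 (57.6) and Ube2d1 (52.2), whose ranges over the samples overlapped. This order is that of means over all samples and differed between groups. By group mean Ube2v1 lay above Ube2d3 in both UBR4 mKO groups, and Ube2r2 lay above both genes in 6-month-old WT muscles. Of the 40 genes, 24 had a mean of at least 10 TPM. Ube2t, Ube2l6, Ube2w, Ube2cbp, Ube2c and Ube2e2 were the lowest genes tested, with means from 2.98 TPM for Ube2t to 1.21 TPM for Ube2e2. The sum over the 40 genes was 1013 ± 126 TPM in 6-month-old WT, 1173 ± 92.3 in 6-month-old UBR4 mKO, 1145 ± 50.3 in 24-month-old WT and 1166 ± 37.6 in 24-month-old UBR4 mKO muscles (SD, n = 4 each). After median-of-ratios scaling the order of the 6-month-old groups turned, with sums of 1179 ± 57.0 in WT and 1071 ± 33.9 in UBR4 mKO muscles.

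**Figure D1:**
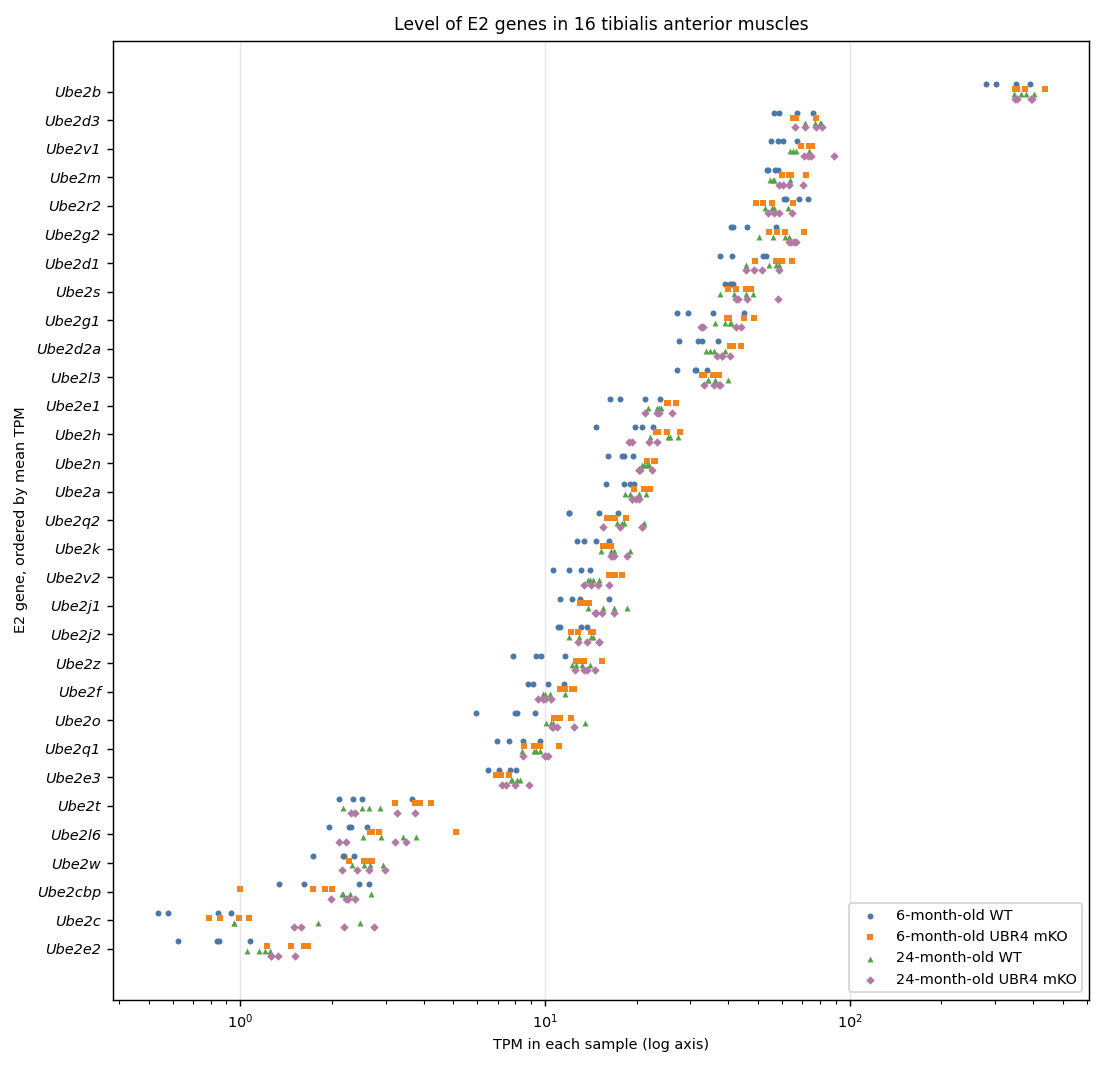
TPM (log axis) of the tested E2 genes reported here (rows, ordered by mean TPM) in each of the 16 muscles, with 1 point per muscle and 1 colour and marker per group. Ube2b lies apart from the rest at 280 to 438 TPM, and the other genes shown lie between 0.536 and 88.7 TPM.

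In 6-month-old muscles, loss of UBR4 went with higher TPM of E2 genes of every role, and 17 of the 32 tested rose, led by Ube2e2, Ube2o and Ube2t. One, Ube2r2, fell. Over all genes tested, 43.7% rose and 1.15% fell, which is the background against which these counts are read. The median E2 gene was at 0.27 and the median of all genes at 0.33 on the log2 scale, with 14 E2 genes above that median and 18 below. In 11 E2 genes, all higher in UBR4 mKO, the groups did not overlap, beside 39.9% of all genes, whereas after median-of-ratios scaling 3 were higher and 7 lower without overlap, beside 27.7%. After this scaling 1 E2 gene rose, Ube2e2, beside 6.66% of all genes, and 5 fell, beside 10.2%: Ube2r2, Ube2cbp, Ube2e3, Ube2j1 and Ube2d3. The count of 18 changed genes was 11 without WT sample 3 of this age and 9 without WT sample 4, UBR4 mKO sample 3 or UBR4 mKO sample 4. The share of all genes called moved too, from 44.9% to 34.4% in the first of these fits and to 25.8, 34.9 and 30.5% in the others. In these UBR4 mKO muscles the 7 leukocyte markers also summed to 45.2 to 154 TPM, against 13.2 to 19.5 TPM in WT (1 of the 7 listed at 0 in every WT sample), the 6 interferon response markers to 14.7 to 42.7 against 10.3 to 13.5, and the 4 endothelial markers to 105 to 114 against 66.4 to 91.1. On TPM 3 of 5 tested interferon response and 2 of 4 endothelial genes rose, and after scaling none of either, whereas the 3 tested leukocyte genes rose on both scales. The 4 fibroblast markers summed to 205 to 382 TPM against 159 to 265 TPM, and 2 of them rose, Col3a1 by 1.45 (limma adjusted p = 0.00295) and Pdgfra by 0.83 (adjusted p = 0.00911), of which Col3a1 also rose after scaling (1.09, adjusted p = 0.0354). The part of these markers in the E2 values was not tested.

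At 24 months none of the 32 E2 genes passed the test by limma, beside 0.63% of all genes, and none after median-of-ratios scaling, beside 0.913%. At an unadjusted p under 0.05 limma gave 2 E2 genes, Ube2v1 (log2 change 0.19, adjusted p = 0.448) and Ube2h (-0.27, adjusted p = 0.455), and Dunn's test gave 1 unadjusted and 0 adjusted. Over all 10628 genes the unadjusted counts were 1076 by limma and 427 by Dunn's test. The groups did not overlap in 2 E2 genes, beside 5.8% of all genes, Ube2e2 and Ube2g2, the latter with 50.4 to 63.1 TPM in WT and 63.4 to 66.5 TPM in UBR4 mKO muscles (log2 change 0.18, limma adjusted p = 0.672). After scaling they did not overlap in Ube2e2, which was higher, and Ube2h, which was lower, beside 6.62% of all genes. The median E2 gene was at 0.0042 and the median of all genes at 0.013. The leukocyte markers summed to 25.2 to 53.3 TPM in WT and 64.1 to 276 TPM in UBR4 mKO muscles at 24 months, without overlap. The adipocyte markers summed to 6.92 to 18.3 TPM and 10.4 to 65.5 TPM, which overlapped. No tested leukocyte or adipocyte gene was called on either scale, and the part of these markers in the E2 values was not tested.

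With age in WT muscles, 7 of the 32 E2 genes rose (Ube2c, Ube2g2, Ube2h, Ube2n, Ube2o, Ube2q2 and Ube2z) and none fell, beside 24.0% of all genes that rose. The median E2 gene was at 0.24 and the median of all genes at 0.26. The groups did not overlap in 5 E2 genes, all higher, beside 25.9% of all genes, and after median-of-ratios scaling in 2 that were higher and 2 that were lower, beside 22.0%. After median-of-ratios scaling 1 E2 gene passed the test, Ube2r2, which fell, beside 5.33% of all genes that fell. This comparison shares the 6-month-old WT samples with the knockout comparison at 6 months. The count of 7 became 20, 3 and 2 without 6-month-old WT sample 2, 3 and 4, became 3 and 2 without 24-month-old WT sample 1 and 4, and was 13 without UBR4 mKO sample 3 of the 24-month-old group. In these 6 fits, in the same order, the share of all genes called was 46.8, 12.4, 9.16, 12.6, 10.5 and 39.3%, against 25.1% with all samples. The leukocyte markers summed to 13.2 to 19.5 TPM in 6-month-old and 25.2 to 53.3 TPM in 24-month-old WT muscles and the interferon response markers to 10.3 to 13.5 and 15.98 to 29.1 TPM, both without overlap. With age in WT 2 of 3 tested leukocyte and 4 of 5 tested interferon response genes rose on TPM, against 1 and 0 after scaling. Of 4 endothelial genes 0 were called on TPM and 3 fell after scaling, and 1 of 4 fibroblast genes fell on both scales. Of 6 myofiber genes 4 rose and 2 fell on TPM, against 1 and 2 after scaling, and 1 of 3 tested Schwann genes rose on TPM only. The part of these markers in the E2 values was not tested.

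With age in UBR4 mKO muscles Ube2c alone rose among the E2 genes, beside 2.45% of all genes, and it rose alone after median-of-ratios scaling too, beside 5.97%. In the same comparison the endothelial markers went from 105 to 114 TPM to 53.7 to 87.6 TPM, without overlap, and 2 of 4 endothelial genes fell (3 of 4 after scaling). Of 4 fibroblast genes 2 fell on both scales, while their sums overlapped, and the part of these markers in the E2 values was not tested. The test of whether the knockout effect differed between the ages called Ube2h, with a lower effect at 24 months, beside 4.58% of all genes with a lower one. After median-of-ratios scaling this test instead called Ube2r2, with a higher effect at 24 months, beside 1.02% of all genes with a higher one. Next in adjusted p came Ube2n, Ube2v2, Ube2o and Ube2z, whose interaction lay between -0.35 and -0.53 with adjusted p-values from 0.0665 to 0.0837 by limma on TPM. The median of all genes was at -0.31 and the median E2 gene at -0.25 in this comparison. The count of 1 for the interaction became 11 without the second 6-month-old WT sample, where the share of all genes called went from 4.7 to 23.4%.

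**Figure D2:**
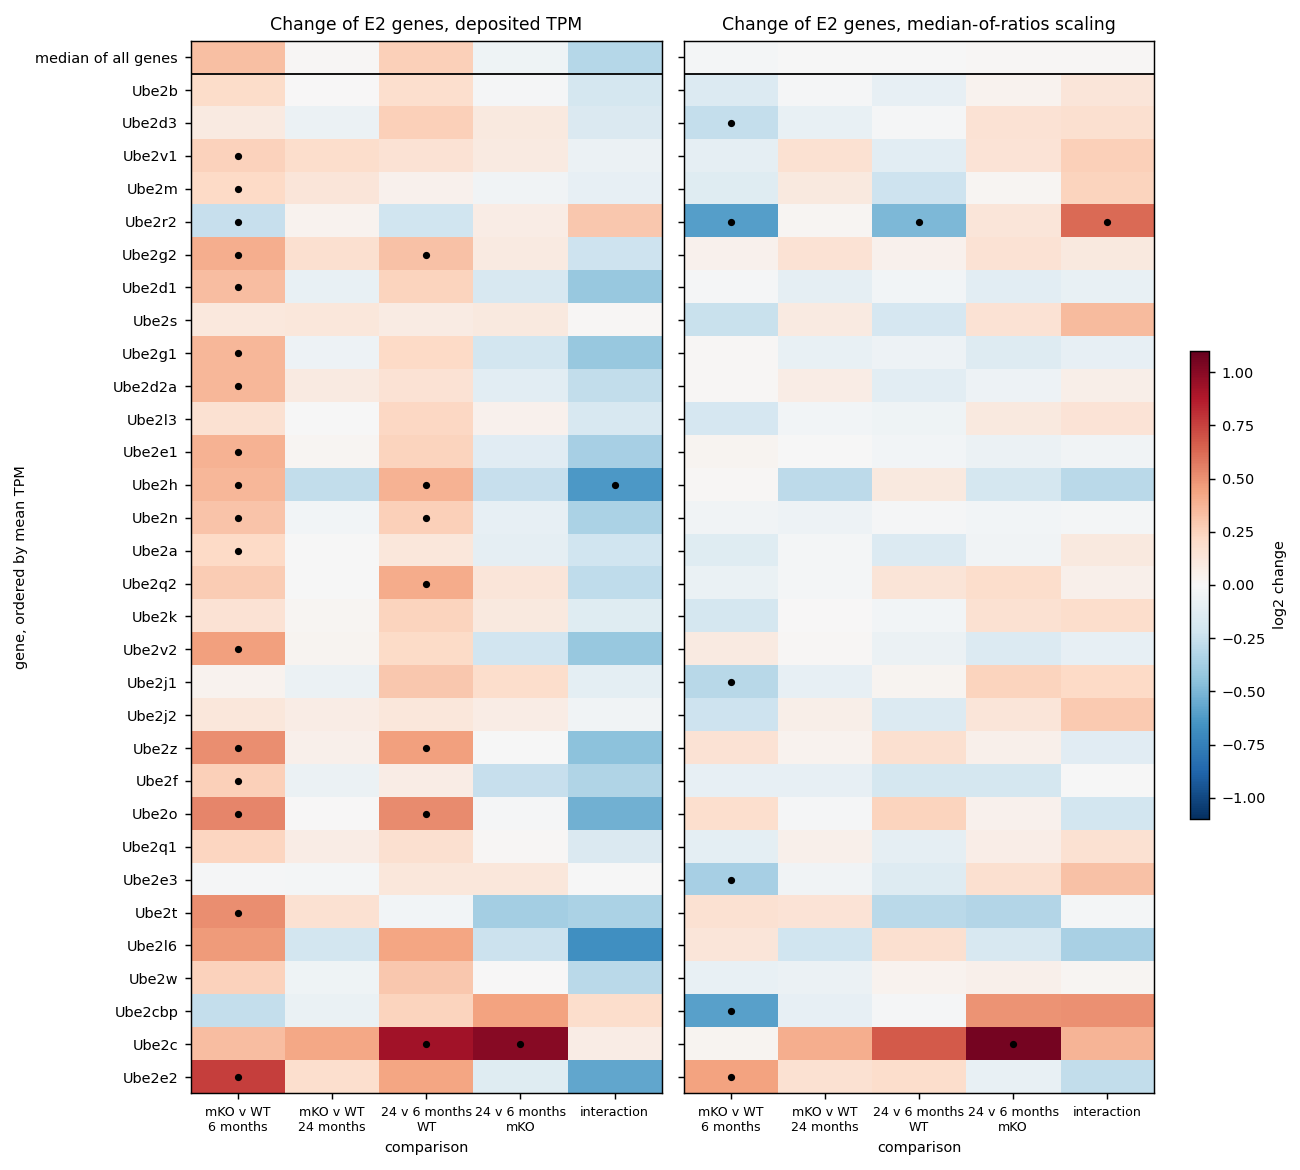
Log2 change (colour) of the tested E2 genes reported here in the 5 comparisons (columns) on deposited TPM at left and after median-of-ratios scaling at right, with the median of all tested genes in the top row and a dot where the limma adjusted p was under 0.05. On TPM Ube2e2 (0.76) and Ube2o (0.53) rose at 6 months beside a median gene at 0.33, and after scaling Ube2e2 alone rose while Ube2r2 fell in both comparisons with 6-month-old WT.

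Of the RAD6-type enzymes, Ube2b was at 352, 391, 301 and 280 TPM in 6-month-old WT and at 350, 354, 376 and 438 TPM in 6-month-old UBR4 mKO muscles. The groups overlapped, since the first and second WT samples lay within the range of the UBR4 mKO samples. The log2 change of Ube2b was 0.20 (standard error 0.10, limma adjusted p = 0.102). At 24 months Ube2b ranged from 345 to 402 TPM in WT and from 350 to 398 TPM in UBR4 mKO muscles, a change of 0.0047 (adjusted p = 0.997). Ube2b passed the test at 6 months in 1 of the 16 fits that left out a sample, that without the second 6-month-old WT sample (0.29, adjusted p = 0.0199), and the same fit called its change with age in WT (0.27, adjusted p = 0.0341, against 0.18 and 0.161 with all samples).

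Ube2a was at 18.2, 19.0, 19.5 and 15.9 TPM in 6-month-old WT and at 19.5, 21.5, 21.2 and 22.2 TPM in 6-month-old UBR4 mKO muscles. The lowest UBR4 mKO sample lay at the level of the highest WT sample, and the other 3 lay above all WT samples. Ube2a rose by 0.22 on the log2 scale (standard error 0.08, limma adjusted p = 0.0434), a value below that of the median gene. Its adjusted p ranged from 0.0282 to 0.751 over the alternatives, the call was lost in 10 of the 16 fits that left out a sample (adjusted p from 0.0501 to 0.142), all but those without sample 2 or 3 of 6-month-old WT, sample 1 of 6-month-old UBR4 mKO, sample 3 or 4 of 24-month-old WT or sample 3 of 24-month-old UBR4 mKO muscles, and after median-of-ratios scaling the change was -0.13 (adjusted p = 0.249). It was also lost without the variance trend (0.0501) and with only the 2 groups compared in the fit (0.0796). At 24 months Ube2a had a mean of 19.8 TPM in WT and 19.7 TPM in UBR4 mKO muscles. The ratio of Ube2b to Ube2a, which no scaling of samples moves, was 18.2 ± 2.24 in 6-month-old WT, 17.96 ± 1.35 in 6-month-old UBR4 mKO, 18.9 ± 1.34 in 24-month-old WT and 19.0 ± 1.49 in 24-month-old UBR4 mKO muscles (SD, n = 4 each). In 4 comparisons of this ratio the two-sided exact permutation p was 0.886 and 0.886 for genotype at 6 and 24 months and 0.657 and 0.314 for age in WT and UBR4 mKO, each 0.886 after Benjamini-Hochberg adjustment, where the smallest p that 4 against 4 samples allow is 0.0286.

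The UBE2D, UBE2E and UBE2W group holds E2 enzymes that attach the first ubiquitin to substrates. Of its 7 tested members 4 rose at 6 months (Ube2d1, Ube2d2a, Ube2e1 and Ube2e2), beside 43.7% of all genes, and none changed in the other comparisons on TPM. The group median at 6 months was 0.34, beside 0.33 for all genes. Ube2e2 was at 0.853, 1.08, 0.839 and 0.623 TPM in 6-month-old WT and at 1.62, 1.22, 1.46 and 1.67 TPM in 6-month-old UBR4 mKO muscles. All UBR4 mKO samples lay above all WT samples. Its log2 change of 0.76 (standard error 0.16, limma adjusted p = 0.0023) was the largest of the E2 genes at 6 months, and it remained 0.44 (adjusted p = 0.0131) after median-of-ratios scaling. Ube2e2 was called at 6 months in every limma fit that was run, with adjusted p-values from 0.000727 to 0.0163. At 24 months Ube2e2 ranged from 1.05 to 1.25 TPM in WT and from 1.26 to 1.51 TPM in UBR4 mKO muscles, groups that did not overlap, with a change of 0.19 (adjusted p = 0.818).

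The other members of this group differed in how far they moved. Ube2e3, its close paralog, ranged from 6.50 to 8.02 TPM in 6-month-old WT and from 6.89 to 7.60 TPM in 6-month-old UBR4 mKO muscles, with a change of -0.02 (limma adjusted p = 0.882) that became -0.37 (adjusted p = 0.00384) after median-of-ratios scaling. Ube2e1 had 16.4 to 23.9 TPM in WT and 25.1 to 27.0 TPM in UBR4 mKO muscles at 6 months, without overlap. It rose by 0.39 (adjusted p = 0.0095), while 14.6% of its 100-base windows also occur in other genes, chiefly Nkiras1 on the opposite strand. Ube2d3, at 56.5 to 76.0 TPM in WT and 65.0 to 77.6 TPM in UBR4 mKO muscles, had a change of 0.10 (adjusted p = 0.421) on TPM and fell by 0.26 (adjusted p = 0.00917) after scaling. Ube2d2a rose by 0.37 (adjusted p = 0.00425) on TPM and was at 0.014 after scaling.

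**Figure D3:**
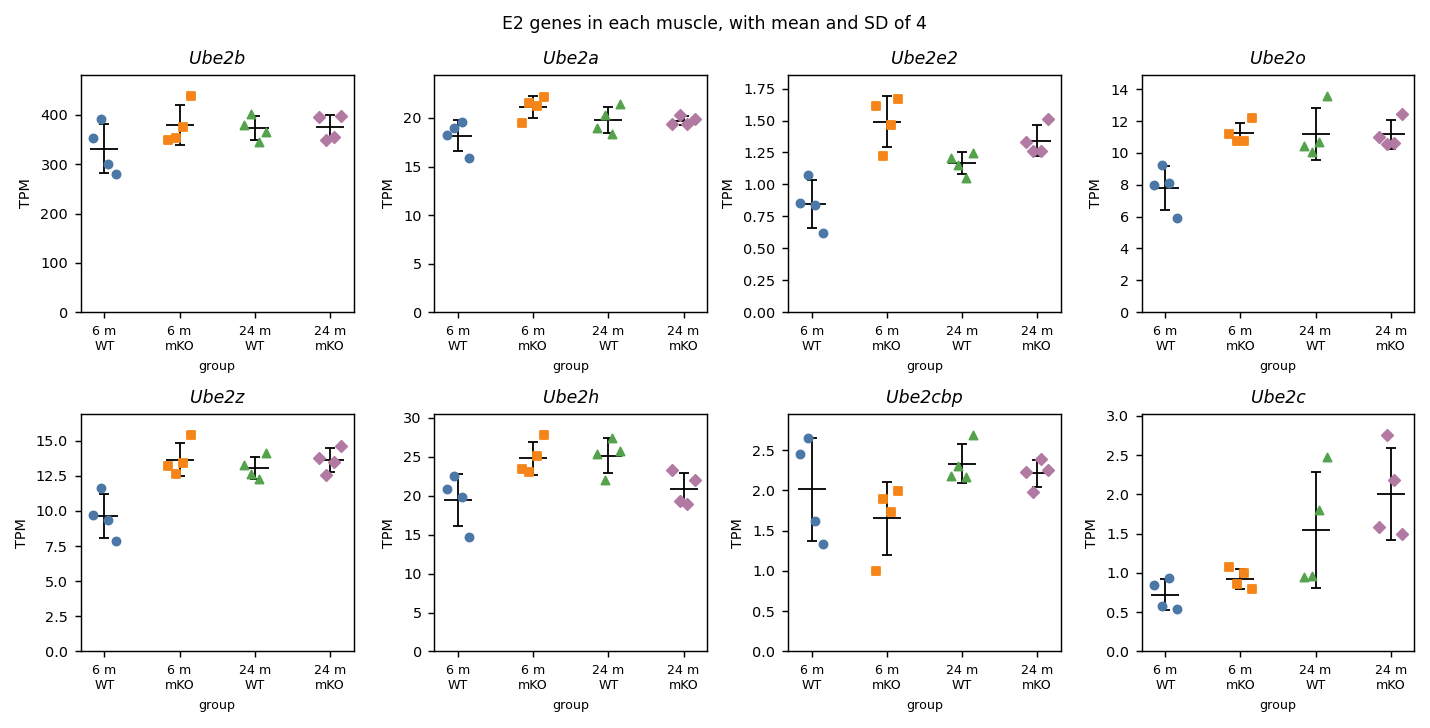
TPM (linear axes from 0) of 8 E2 genes in each of the 16 muscles by group, with 1 point per muscle, the mean as a horizontal line and the SD of 4 as whiskers. In Ube2e2, Ube2o, Ube2z and Ube2h all 6-month-old UBR4 mKO samples lie above all 6-month-old WT samples, whereas those groups overlap in Ube2b, Ube2a, Ube2cbp and Ube2c.

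Among the UBE2L3, UBE2H, UBE2O and UBE2Q enzymes, 2 of 5 tested rose at 6 months (Ube2h and Ube2o) and 3 of 5 rose with age in WT (Ube2h, Ube2o and Ube2q2), beside 43.7 and 24.0% of all genes. Ube2o encodes a large E2 with ligase activity of its own that clears excess proteins in differentiating red blood cells. It was at 7.99, 9.24, 8.08 and 5.92 TPM in 6-month-old WT, at 11.2, 10.8, 10.7 and 12.2 TPM in 6-month-old UBR4 mKO, and at 10.5, 10.1, 10.7 and 13.6 TPM in 24-month-old WT muscles. The 6-month-old WT samples lay below all samples of the other 3 groups. Ube2o rose by 0.53 at 6 months (standard error 0.13, limma adjusted p = 0.00432) and by 0.52 with age in WT (standard error 0.13, adjusted p = 0.0101). After median-of-ratios scaling it was at 0.18 (adjusted p = 0.132) and 0.25 (adjusted p = 0.0621), and on that scale too its groups did not overlap in these 2 comparisons. The erythroid markers, which as a list had 0 of 5 tested genes called at 6 months or with age in WT, summed to 578 to 944 TPM in 6-month-old UBR4 mKO and 807 to 1108 TPM in 6-month-old WT muscles, and to 918 to 1270 TPM in 24-month-old WT muscles.

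Ube2h encodes the E2 of the CTLH ligase, a large E3 complex. It was at 20.9, 22.6, 19.8 and 14.7 TPM in 6-month-old WT, at 23.4, 23.1, 25.1 and 27.7 TPM in 6-month-old UBR4 mKO, at 25.3, 22.1, 27.4 and 25.8 TPM in 24-month-old WT and at 23.3, 19.4, 18.9 and 22.0 TPM in 24-month-old UBR4 mKO muscles. UBR4 mKO samples lay above all WT samples at 6 months, and at 24 months 3 of the 4 UBR4 mKO samples lay below all WT samples. The log2 change with knockout was 0.36 at 6 months (limma adjusted p = 0.0247) and -0.27 at 24 months (adjusted p = 0.455), an interaction of -0.63 (standard error 0.17, adjusted p = 0.0444) beside -0.31 for the median gene. The interaction kept its sign under every alternative, from -0.30 to -0.71, but its call was lost in 12 of the 16 fits that left out a sample (adjusted p from 0.061 to 0.0906), all but those without sample 2 of either WT group or sample 1 or 4 of 24-month-old UBR4 mKO muscles, and after median-of-ratios scaling (0.149, or 0.122 without UBR4 mKO sample 3 of the 24-month-old group as well). It was also lost with the mitochondrial genes left out (0.146), no filter on low values (0.0733) or no variance trend (0.0556). Of the windows of Ube2h, 30.4% lie opposite Gm26526, an entry with a mean of 0.021 TPM. The remaining members, Ube2l3, Ube2q1 and Ube2q2, had changes from 0.17 to 0.28 at 6 months and none passed the test.

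Among the E2 enzymes of ubiquitin-like modifiers, Ube2m and Ube2f serve NEDD8 and Ube2l6 serves ISG15, and Ube2z is charged by the second ubiquitin E1, UBA6. Of these 4 genes, 3 rose at 6 months, with changes of 0.51 for Ube2z, 0.26 for Ube2f and 0.22 for Ube2m, beside 43.7% of all genes, and Ube2z alone rose with age in WT. The changes of Ube2f and Ube2m lay below that of the median gene (0.33), and after median-of-ratios scaling they turned to -0.09 and -0.14, where none of the 4 genes passed the test in these comparisons. Ube2z was at 9.74, 11.6, 9.32 and 7.86 TPM in 6-month-old WT, at 13.2, 12.6, 13.4 and 15.4 TPM in 6-month-old UBR4 mKO and at 13.3, 12.6, 12.3 and 14.1 TPM in 24-month-old WT muscles. As for Ube2o, the 6-month-old WT samples lay below all others. Ube2z rose by 0.45 with age in WT (standard error 0.11, limma adjusted p = 0.01), with 0.18 (adjusted p = 0.0918) after scaling. Ube2l6 was at 5.10, 2.70, 2.66 and 2.84 TPM in 6-month-old UBR4 mKO muscles and at 1.95 to 2.61 TPM in WT, without overlap, and its change of 0.47 had an adjusted p of 0.0705. The first UBR4 mKO sample, highest in Ube2l6, was also the highest of its group in the leukocyte gene Ptprc (1.66 TPM against 0.347 to 0.526) and in the interferon-induced genes Isg15 (9.37 TPM against 1.94 to 4.37) and Irf7 (8.98 TPM against 1.68 to 2.91), whose part in this value was not tested. Of the other leukocyte markers, Cd68, Adgre1, Lyz2 and, by little, Cd3e were also highest in that sample. Cd79a (0.216 TPM against 0.201 to 0.253) and Ms4a1 (0 TPM against 0.0150 to 0.0237) were not.

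Ube2n, the E2 of K63-linked chains, and its partners Ube2v1 and Ube2v2 all rose at 6 months, beside 43.7% of all genes, with changes of 0.32 (limma adjusted p = 0.00467), 0.26 (adjusted p = 0.0232) and 0.45 (adjusted p = 0.00209). Ube2v2 was at 10.6 to 14.1 TPM in WT and 16.2 to 17.9 TPM in UBR4 mKO muscles at that age, and none of the 3 genes overlapped between the groups, beside 39.9% of all genes without overlap. After median-of-ratios scaling they were at -0.03, -0.10 and 0.10 and none passed the test. With age in WT Ube2n rose by 0.26 (adjusted p = 0.0235). Ube2v1 shares 53.2% of its windows with the read-through gene Gm20431 on the same strand, which was listed at a mean of 2.13 TPM, so its level depends on how such reads were assigned.

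Of the 6 enzymes of K48-linked chains and of degradation at the endoplasmic reticulum, 2 rose and 1 fell at 6 months, beside 43.7 and 1.15% of all genes. At 6 months Ube2g1 and Ube2g2 rose by 0.36 (limma adjusted p = 0.045) and 0.40 (adjusted p = 0.00948), Ube2r2 fell, and Ube2j1, Ube2j2 and Ube2k had changes from 0.04 to 0.16 with adjusted p-values from 0.158 to 0.754. With age in WT Ube2g2 rose by 0.32 (adjusted p = 0.0418). After median-of-ratios scaling Ube2g1 and Ube2g2 were at 0.0089 and 0.05 at 6 months and neither passed the test. After median-of-ratios scaling Ube2j1, a membrane-bound E2 of the endoplasmic reticulum, fell at 6 months by 0.31 (adjusted p = 0.0199), with 14.3 to 16.1 scaled TPM in WT and 11.9 to 12.9 in UBR4 mKO muscles.

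Ube2r2, which with its paralog Cdc34 encodes the E2 enzymes that extend chains on substrates of cullin-RING ligases, was at 68.2, 73.1, 61.9 and 61.0 TPM in 6-month-old WT and at 49.2, 55.6, 52.1 and 65.4 TPM in 6-month-old UBR4 mKO muscles. The fourth UBR4 mKO sample lay within the WT range and the other 3 lay below it. Ube2r2 fell by 0.25 on the log2 scale (standard error 0.10, limma adjusted p = 0.043). This call was lost in 9 of the 16 fits that left out a sample, those without sample 1, 2 or 3 of either 6-month-old group, sample 1 or 2 of 24-month-old WT or sample 2 of 24-month-old UBR4 mKO muscles (adjusted p from 0.0505 to 0.123), and also with no filter on low values (0.0591), no variance trend (0.0582) or only the 2 groups compared in the fit (0.0596). On the scale of the typical gene the fall was larger, with 79.0, 72.6, 72.3 and 85.0 scaled TPM in WT and 46.2, 52.8, 48.02 and 55.9 in UBR4 mKO muscles. There the groups did not overlap, and the change was -0.61 (standard error 0.10, adjusted p = 0.00119). With the mitochondrial genes left out and the rest rescaled it was -0.51 (adjusted p = 0.000379).

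In 24-month-old muscles Ube2r2 was at 55.6, 56.3, 52.7 and 62.5 TPM in WT and at 56.6, 58.8, 64.8 and 53.8 TPM in UBR4 mKO, which overlapped. The change with knockout at 24 months was 0.04 on TPM (limma adjusted p = 0.968) and 0.02 after median-of-ratios scaling (adjusted p = 0.951). With age in WT it was -0.22 on TPM (adjusted p = 0.0958), and after scaling Ube2r2 fell by 0.49 (standard error 0.10, adjusted p = 0.00742). The interaction of genotype and age was 0.29 on TPM (adjusted p = 0.155), 0.63 after scaling (adjusted p = 0.0395) and 0.52 after scaling without UBR4 mKO sample 3 of the 24-month-old group (adjusted p = 0.0214), the last chosen after seeing the data.

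Cdc34 had 199 to 234 TPM in 6-month-old WT and 244 to 262 TPM in 6-month-old UBR4 mKO muscles, without overlap (log2 change 0.23, limma adjusted p = 0.0641). After median-of-ratios scaling the direction turned, with 232 to 277 scaled TPM in WT and 224 to 232 in UBR4 mKO muscles (log2 change -0.12, adjusted p = 0.546). The ratio of Ube2r2 to Cdc34 within a sample does not depend on the scaling of samples, and it was chosen after the values were seen, so it is given with no test. It was 0.306, 0.313, 0.310 and 0.307 in 6-month-old WT muscles and 0.201 to 0.250 in 6-month-old UBR4 mKO muscles. In 24-month-old muscles it was 0.220 to 0.235 in WT and 0.202 to 0.246 in UBR4 mKO. The 6-month-old WT samples thus lay above the other 12, whose 3 groups overlapped.

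**Figure D4:**
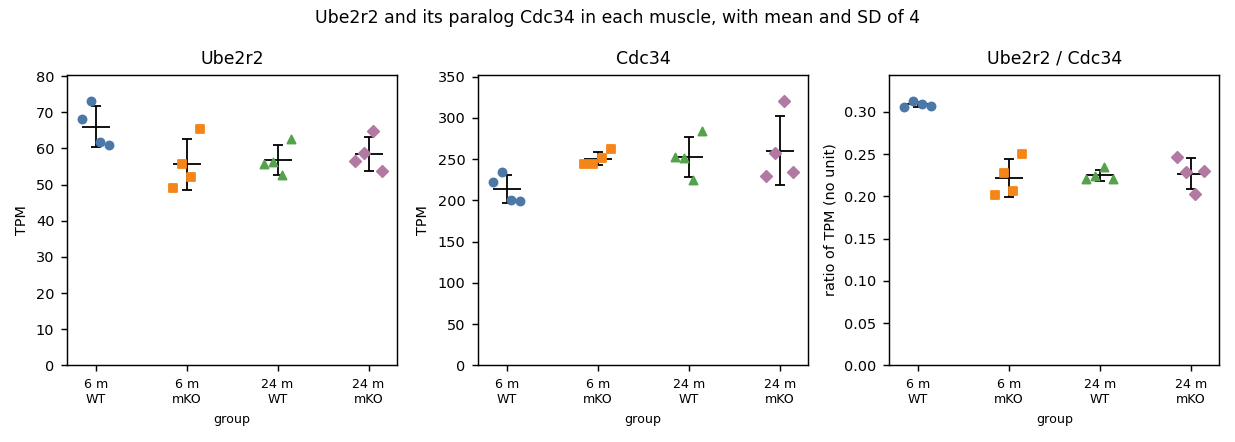
TPM of Ube2r2 and of Cdc34 and the ratio of both (linear axes from 0) in each of the 16 muscles by group, with 1 point per muscle, the mean as a horizontal line and the SD of 4 as whiskers. The ratio lies at 0.306 to 0.313 in the 6-month-old WT samples and at 0.201 to 0.250 in the other 12.

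Of the E2 enzymes of the anaphase-promoting complex and of DNA repair, Ube2t, which acts in the Fanconi anemia pathway, was at 2.12, 3.66, 2.35 and 2.50 TPM in 6-month-old WT and at 3.73, 3.23, 4.22 and 3.89 TPM in 6-month-old UBR4 mKO muscles. The second WT sample lay among the UBR4 mKO samples. Ube2t rose by 0.51 (standard error 0.18, limma adjusted p = 0.0282), with 0.17 (adjusted p = 0.522) after median-of-ratios scaling, and its call was lost in 6 of the 16 fits that left out a sample, those without sample 1, 3 or 4 of either 6-month-old group (adjusted p from 0.0505 to 0.0864), and with the mitochondrial genes left out (0.301) or no filter on low values (0.0509). Ube2s, which extends chains on substrates of the anaphase-promoting complex, was at 37.6 to 58.3 TPM in all samples and was called in none of the comparisons.

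Ube2c, the E2 that starts chains with the anaphase-promoting complex in mitosis, was at 0.846, 0.578, 0.933 and 0.536 TPM in 6-month-old WT and at 0.954, 0.957, 1.80 and 2.48 TPM in 24-month-old WT muscles. In UBR4 mKO muscles it was at 1.07, 0.858, 0.994 and 0.790 TPM at 6 months and at 1.58, 2.75, 2.19 and 1.497 TPM at 24 months. In both genotypes the 24-month-old samples lay above the 6-month-old samples, although in WT 2 of them exceeded the highest young sample by little. Ube2c rose by 0.92 with age in WT (standard error 0.28, limma adjusted p = 0.0255) and by 1.0 in UBR4 mKO (standard error 0.28, adjusted p = 0.039). The call in WT was lost in 3 of the 16 fits that left out a sample, those without sample 4 of 6-month-old or sample 3 or 4 of 24-month-old WT muscles (adjusted p from 0.0585 to 0.0965), and after median-of-ratios scaling (0.68, adjusted p = 0.154, or 0.115 without UBR4 mKO sample 3 of the 24-month-old group as well), with the mitochondrial genes left out (0.102) and with no filter on low values (0.0503). The call in UBR4 mKO was lost in 6, those without any one of the 6-month-old UBR4 mKO samples or without sample 2 or 3 of the 24-month-old ones (adjusted p from 0.0631 to 0.13), and with no filter on low values (0.0652). Without UBR4 mKO sample 3 of the 24-month-old group it was 0.95 (adjusted p = 0.0705), and 0.94 (adjusted p = 0.0582) after scaling as well, the latter chosen after seeing the data.

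The 5 markers of proliferating cells summed to 0.138 to 0.958 TPM in 6-month-old and 0.178 to 0.379 TPM in 24-month-old WT muscles, and to 0.523 to 2.64 and 0.368 to 2.21 TPM in UBR4 mKO muscles. The ages overlapped in both genotypes. Each marker was below 1 TPM in every sample, and their part in the Ube2c values was not tested. The locus of Ube2c (chr2:164769898-164778822, plus strand) overlaps the fast troponin gene Tnnc2 on the opposite strand, which shares 6.16% of its windows. Tnnc2 was at 12973 to 18429 TPM, and its changes with age were 0.09 in WT and 0.13 in UBR4 mKO. The labels name a stranded library kit and the study's methods one that does not mark strand, and how the counting used strand is not given in the sources used here, so it is not known whether reads of Ube2c and Tnnc2 were separated in the shared bases.

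Ube2cbp, the E2-binding E3 ligase, was at 2.46, 2.65, 1.62 and 1.34 TPM in 6-month-old WT and at 0.996, 1.90, 1.73 and 2.00 TPM in 6-month-old UBR4 mKO muscles. The groups overlapped, with a change of -0.26 (limma adjusted p = 0.307). After median-of-ratios scaling it fell by 0.60 (standard error 0.18, adjusted p = 0.0357) and the groups did not overlap. Among the genes below the minimum, Ube2ql1 ranged from 0.253 to 0.557 TPM in 6-month-old and from 0.737 to 1.03 TPM in 24-month-old WT muscles, without overlap. In a fit with no filter on low values it rose by 0.95 with age in WT (adjusted p = 0.0279) and was at 0.83 in UBR4 mKO (adjusted p = 0.0846).

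The partners of the E2 enzymes in the ubiquitin pathway were read beside them. Of 9 genes for E1 enzymes, which charge the E2 enzymes, 4 rose and none fell at 6 months, beside the 43.7% of all genes that rose, with the largest changes among the 4 in Uba7, the E1 of ISG15 (0.83, limma adjusted p = 0.00689), Uba3, a subunit of the NEDD8 E1 (0.52, adjusted p = 0.00315), and its partner Nae1 (0.40, adjusted p = 0.0197). Uba1, the main ubiquitin E1, was not called. None of the 9 was called at 24 months, beside 0.63% of all genes, and after median-of-ratios scaling none of the 9 was called at 6 months, where 6.66% of all genes rose and 10.2% fell. Of 11 genes for ubiquitin and its relatives, 3 rose at 6 months (Isg15 by 0.99, Urm1 by 0.35 and Nedd8 by 0.34) and 2 with age in WT (Isg15 by 1.21 and Ubb by 0.34), beside 43.7 and 24.0% of all genes. After scaling 3 of the 11 fell at 6 months, beside 10.2% of all genes, among them Sumo2 by 0.37 and Ufm1 by 0.23.

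Among the 8 genes for proteins with an E2 fold outside the symbol rule, Cdc34 included, 3 rose at 6 months (Atg10 by 0.34, Tsg101 by 0.30 and Atg3 by 0.24), beside 43.7% of all genes, and Tsg101 rose with age in WT by 0.26. After median-of-ratios scaling 2 of the 8 fell at 6 months, beside 10.2% of all genes, Ufc1 by 0.35 and Aktip by 0.24. Of 9 tested E3 ligases and cofactors that use RAD6-type E2 enzymes, Rnf20 and Rnf40, which form the ligase for histone H2B, rose at 6 months by 0.56 (limma adjusted p = 0.00816) and 0.33 (adjusted p = 0.0418), and Ubr4, the deleted gene, fell by 1.12 (adjusted p = 0.00365). On TPM 43.7% of all genes rose and 1.15% fell. After scaling 3 of the 9 fell at 6 months, beside 10.2% of all genes, Ubr4 by 1.47, Kcmf1, a partner of UBR4, by 0.35 (adjusted p = 0.00704, against 0.0047 and 0.972 on TPM), and Ubr7 by 0.26 (adjusted p = 0.0152). At 24 months none of these E3 genes was called on TPM, where Ubr4 was at -1.12 (adjusted p = 0.0598), and after scaling Ubr4 alone fell, by 1.14 (adjusted p = 0.0281).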

How the data were processed

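Tibialis anterior RNA of 16 mice was sequenced as paired-end reads, which the authors trimmed, filtered, aligned to GRCm38 (mm10) and counted with CLC Genomics Workbench. They deposited TPM for 47643 genes. The kit and instrument differ between the labels and the study's methods, and the use of strand and the treatment of reads matching several genes are not given in the sources used here. Each sample sums to 1000000 TPM, so depth is unknown and no interval from counting is given.

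Groups and replicate numbers came from the labels. The study's text gives 3 replicates for RNA-seq, whereas the table holds 4 samples of each group, all used here. The 10628 genes with a mean of at least 1 TPM were fitted as log2(TPM + 0.1) in R 4.3.3 using limma 3.58.1 (a coefficient per group, variance trend). In each of 5 comparisons p-values were adjusted by Benjamini-Hochberg across the genes tested, and 0.05 was the threshold. The Kruskal-Wallis and Dunn's tests of the study's methods were run as an alternative. Median-of-ratios factors used the 14470 genes that no sample lists at 0. Exact two-sided permutation tests of the Ube2b to Ube2a ratio enumerated all 70 assignments.

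Genes named are Ube2a and Ube2b, in each comparison up to 3 called E2 genes with the largest rise and 3 with the largest fall, every E2 gene called after median-of-ratios scaling, the 3 with the highest TPM, and up to 3 called genes per other pathway list. Others are given by role group, and the Ube2r2 to Cdc34 ratio, Ube2l6 by sample, Ube2ql1 and the genes overlapping E2 loci were chosen after their values were seen. The members and gene lists were chosen with earlier results of these data known. Positions, transcripts and coding sequences are from GENCODE vM21 on GRCm38, and identical 100-base windows between genes were counted. A few genes are not reported here. Scripts were tested on simulated data. Python 3.11.15 with matplotlib 3.10.9 made the figures. Alternatives were another pseudocount (1 TPM), no filter, median-of-ratios scaling, mitochondrial genes left out, no variance trend, a replicate block, only the 2 groups compared, Dunn's test, and 16 fits without 1 sample each.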

Additional observations from a re-analysis of the deposited data

Results flagged for a closer look

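In 6 of 132 groups of 4 values, 1 sample lay far from the other 3 (Dixon's test at the 95% level), where chance alone flags about 1 in 20 groups, or 6.6 of 132. All 6 lie in UBR4 mKO groups. Ube2l6, the E2 of ISG15, was at 5.10 TPM in the first 6-month-old UBR4 mKO sample, against 2.66 to 2.84 TPM in the others of its group. Ube2d3 was at 77.6 TPM in the fourth 6-month-old UBR4 mKO sample, against 65.0 to 66.8 TPM, and Ube2e1 at 27.0 TPM in the third, against 25.1 to 25.4 TPM. In the 24-month-old UBR4 mKO group the third sample was at 8.49 TPM for Ube2q1, against 10 to 10.2 TPM, and at 18.6 TPM for Ube2k, against 16.5 to 16.8 TPM. Ube2n was at 22.5 TPM in the first sample of that group, against 20.3 to 20.5 TPM.

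The knockout effect on Ube2h differed between the ages by the interaction test, with a log2 interaction of -0.63 (limma adjusted p = 0.0444, from 0.0151 to 0.149 over the alternatives). The median of all genes was at -0.31 on this scale, and after median-of-ratios scaling Ube2h was at -0.30 (adjusted p = 0.149).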

How the results depend on the processing

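The counts of E2 genes moved with the scale and with single samples. Median-of-ratios scaling gave 6 in place of 18 at 6 months, 1 in place of 7 with age in WT, and 1 each with age in UBR4 mKO and for the interaction, beside 16.8, 9.77, 11.3 and 1.99% of all genes. Leaving the mitochondrial genes out gave 4, 3, 2 and 1, beside 14.9, 9.9, 9.27 and 2.02% of all genes. Scaling combined with leaving out UBR4 mKO sample 3 of the 24-month-old group, chosen after seeing the data, gave 9, 3, 2 and 1, beside 28.1, 18.8, 14.8 and 3.38%. Dunn's test gave 9, 0 and 0 after adjustment at 6 months and with age in WT and UBR4 mKO (16, 10 and 2 unadjusted), beside 2485, 0 and 0 of all genes (4520, 2840 and 1132 unadjusted). Fitting only the 2 groups compared gave 4 with age in WT, beside 23.6% of all genes. With no filter on low values the counts with age in UBR4 mKO and for the interaction were 0, beside 3.97 and 1.41% of all genes, and without the variance trend the interaction count was 0, beside 4.09%. Leaving out 1 sample at a time gave 9 to 22 at 6 months, 2 to 20 with age in WT, 0 to 1 with age in UBR4 mKO and 0 to 11 for the interaction, beside 25.8 to 58.7, 9.16 to 46.8, 3.52 to 7.28 and 1.76 to 23.4% of all genes. The count at 24 months was 0 under each of these settings.

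The replicate numbers were not treated as pairs in the main fit. Of 24 same-numbered pairs, 4 had a correlation over 0.1 (from -0.35 to 0.181). Without differently numbered pairs to set beside them, these values cannot decide whether samples were paired. A fit with the replicate block gave 12, 0, 4, 0 and 0 E2 genes in the 5 comparisons, beside 39.9, 0.358, 19.0, 5.01 and 2.67% of all genes. It lost the calls of Ube2h for the interaction (adjusted p = 0.0784), of Ube2r2 (0.0652) and Ube2a (0.0747) at 6 months and of Ube2c with age in UBR4 mKO (0.0563), among others.

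Of the 32 E2 genes, 29 were above 0 at 6 months on TPM, beside 90.3% of all genes. After median-of-ratios scaling 12 were above 0, beside 47.1% of all genes, with Ube2n and Ube2v1 among those that turned. Of the genes followed through all alternatives, these turned. At 6 months, under median-of-ratios scaling with or without UBR4 mKO sample 3 of the 24-month-old group, Ube2a was at -0.13, Ube2b at -0.15, Ube2d3 at -0.26 and Ube2j1 at -0.31, and without the mitochondrial genes they were at -0.036, -0.053, -0.16 and -0.21. With age in WT, Ube2a was at -0.15 and Ube2b at -0.093 under scaling, and at -0.069 and -0.011 without the mitochondrial genes. Leaving out 1 sample turned Ube2e3 at 6 months, to 0.028 and 0.0076 without WT sample 1 or 2 and 0.0041 without UBR4 mKO sample 3 (range -0.072 to 0.028), and Ube2j1, to -0.029 without WT sample 4 (range -0.029 to 0.14). Of these, Ube2d3, Ube2e3 and Ube2j1 passed the test under scaling. Depth is unknown for these values, and genes near 1 TPM, such as Ube2c and Ube2e2, rest on the fewest reads per length.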
